A study of Mus musculus with 12 samples.

Results

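The tumour necrosis factor (TNF) ligands and receptors were examined in mouse sensory ganglia of both sexes. The set was chosen by gene symbol alone: every listed symbol of the form Tnf, Tnfsf or Tnfrsf with a number, plus Tnf, Lta, Ltb, Ltbr, Fas, Fasl, Edar and Eda2r. This gave 39 of the 22609 genes in the count tables, 15 ligands and 24 receptors. The 4 groups crossed sex with ganglion, the dorsal root ganglia (DRG) or the trigeminal ganglia (TG), with 3 libraries each. All animals were untreated wild-type mice labelled as C57BL (C57BL/6J in the study's methods) and as 3 to 4 months old, and the study's methods add that the DRG were lumbar and that females were taken in the estrous phase. Each library came from the neuron-enriched Percoll fraction of a dissociated ganglion preparation, a fraction that still holds other cells, and was made from rRNA-depleted total RNA. Whether DRG and TG libraries of the same number share animals, and whether animals were pooled, is not stated, so p-values measure only the spread between these libraries, which may be partly technical.

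Reads in genes ranged from 7511765 to 15396090 per library, and the 39 TNF genes together received 2862 to 5402 of them. With so few reads, a gene at 0 in a library can still have had up to 3 counts, which is 0.207 to 0.357 CPM (a gene's reads relative to library size, TMM-scaled). That limit covers counting error only. Of reads counted in or outside annotated genes, 46.4% to 50.4% lay outside in female DRG against 38.2% to 42.6% in male DRG. In TG the shares were 43.5% to 49.1% in females against 37.6% to 47.9% in males. Ambiguous reads and those aligned to more than 1 place were left out of these shares. The latter gave 13195420 to 21206143 counts per library, in each library more than the reads in genes. Xist and Ddx3y counts matched the labelled sex in 12 of 12 libraries. The summed level of 11 sensory neuron markers was 6673 to 13129 CPM, beside 2673 to 7099 CPM for 7 satellite glia markers and 2021 to 3026 CPM for 7 Schwann cell markers. Female DRG 1 had the lowest mean correlation with its group (0.841), and leaving out female TG 3 changed the TG test most, so both libraries are named where they bear on a value.

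TNF ligands are mostly trimeric membrane proteins that can be shed, and they signal by clustering receptors on a neighbouring cell. Receptors with a cytoplasmic death domain, such as TNFR1, Fas and DR6, recruit adaptors that lead either to NF-kB and MAP kinase signalling or to caspase activation, whereas the others bind TRAF proteins directly. Several receptors lack signalling and act as decoys. In sensory ganglia TNF is best known for sensitizing nociceptors, the neurons that report pain.

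Tnfrsf21 led the 39 genes by level, and more receptors than ligands were expressed. A gene was called expressed when its mean RPKM (CPM per kilobase of exon) exceeded 1 in at least 1 group, the level the study asked for. By this rule 16 of the 39 genes were expressed, 5 of 15 ligands and 11 of 24 receptors, and 11 genes passed in all 4 groups. Tnfrsf10b lay just inside the limit with 1.04 RPKM in its highest group, and Tnfrsf26 (0.997 RPKM), Tnfrsf23 (0.973 RPKM) and Tnfrsf4 (0.933 RPKM) lay just outside. The number passing was 16 in female DRG, 14 in female TG, 13 in male DRG and 14 in male TG.

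Among the 39, Tnfrsf21 held the first place in every library. It encodes DR6, a death-domain receptor of neurons and glia, and took 41.9% to 61.1% of all reads of the 39 genes. Its mean level (± SD, n = 3 for group means) was 48.7 ± 4.91 RPKM in female DRG, 43.5 ± 4.01 RPKM in male DRG, 56.5 ± 10.8 RPKM in female TG and 47.2 ± 4.24 RPKM in male TG. Every female TG library was above every male DRG library, while the other pairs of groups overlapped, and the CV over all 12 libraries was 15.3%, the lowest of the 39. Tnfrsf1a came next by mean RPKM over the 12 libraries (10.0 RPKM), followed by Tnfrsf12a (7.74 RPKM), Tnfrsf11a (6.32 RPKM) and Tnfrsf19 (5.57 RPKM). The SDs of these 4 over the 12 libraries were 5.46, 5.26, 3.14 and 2.51 RPKM, so neighbours in this order did not differ beyond their spread. The ligands Tnfsf10 (4.31 RPKM) and Tnfsf12 (3.60 RPKM) stood sixth and seventh, ahead of the receptors Tnfrsf1b (3.53 RPKM) and Ltbr (2.77 RPKM).

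**Figure D1:**
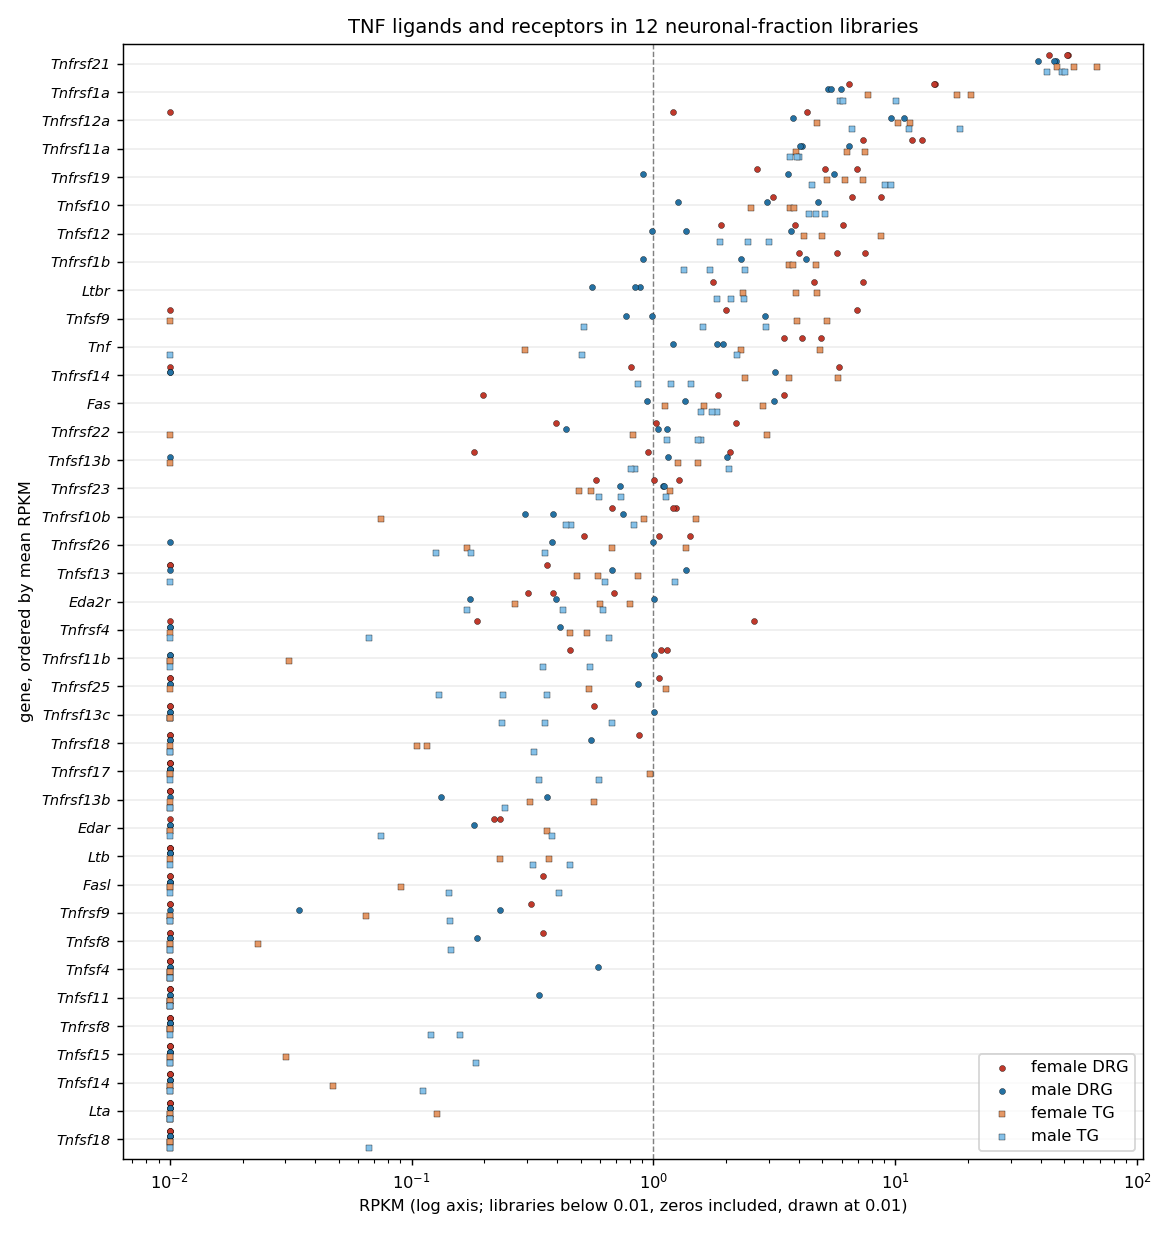
RPKM (log axis) of the 39 TNF ligands and receptors in each of the 12 libraries, ordered by mean RPKM and coloured by group, with libraries below 0.01 RPKM drawn at 0.01 and a dashed line at 1 RPKM. Tnfrsf21 stands apart at the top, 16 genes have at least 1 group mean above the line, and the genes at the bottom have reads in 1 or 2 libraries.

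Set side by side as ligand and receptor, the pairs differed in which partner was measured. Both partners of the TWEAK pair were expressed: Tnfsf12 encodes the ligand, and Tnfrsf12a encodes Fn14, a small receptor induced in injured tissue. Tnfrsf12a averaged 1.84 ± 2.22 RPKM in female DRG and 12.2 ± 5.99 RPKM in male TG, and Tnfsf12 averaged 3.95 ± 2.10 and 2.45 ± 0.564 RPKM in the same groups. Tnfsf10, the death ligand TRAIL, was present in all 12 libraries, while its signalling receptor Tnfrsf10b reached 1.04 RPKM and its decoys Tnfrsf22 and Tnfrsf23 reached 1.42 and 0.973 RPKM in their highest groups. Tnfrsf22 and Tnfrsf23 are near-identical neighbours, and reads aligned to more than 1 place were not counted, so both levels may be too low. In the mm9 annotation, 41.5% of the exon bases of Tnfrsf22 are also shared with a second entry of that name. How reads in that part were counted is not known.

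For several receptors the known ligand was close to absent. Tnfrsf11a encodes RANK, the receptor that drives osteoclast formation, and had 4256 reads over the 12 libraries. Its ligand Tnfsf11 (RANKL) had 8 reads, all in male DRG 2, and the soluble decoy of that ligand, Tnfrsf11b (osteoprotegerin), had 140 reads in 7 libraries. Ltbr encodes the lymphotoxin beta receptor, which signals to the alternative NF-kB pathway in stromal cells and had 867 reads. Its ligand genes were sparse: Ltb had 25 reads in 4 libraries, Lta had 2 reads in 1 library, and Tnfsf14 (LIGHT) had 4 reads in 2 libraries. LIGHT also binds HVEM, encoded by Tnfrsf14, which had 350 reads in 9 libraries. Fas, the classical death receptor, averaged 1.72 to 1.86 RPKM across groups, and its ligand Fasl had 22 reads in 4 libraries.

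The reverse was seen for 4-1BB, a co-stimulator of T cells: its ligand Tnfsf9 was expressed at 1.55 to 3.05 RPKM, and its receptor Tnfrsf9 had 25 reads in 5 libraries. Tnfsf13b encodes BAFF, the survival factor of B cells, and reached 1.23 RPKM, while its receptors Tnfrsf13b, Tnfrsf13c and Tnfrsf17 reached 0.292, 0.423 and 0.324 RPKM. The lymphocyte co-stimulatory ligands Tnfsf4, Tnfsf8, Tnfsf15 and Tnfsf18 had 2 to 33 reads each over all libraries. Markers of T and NK cells summed to 0.0788 to 7.97 CPM and those of B cells to 0 to 5.36 CPM, and Cd3d, Cd79a and Pax5 had at most 3 counts in 10 or more libraries. Lta, Tnfsf14 and Tnfsf18 were at or under 3 counts in every library, so their absence cannot be told from low expression at this depth.

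Reads of the less abundant TNF genes were unevenly spread over replicates. Of the 39 genes, 19 had a group with 1 library at 0 reads and another with 10 or more. Tnfrsf14 had 0, 76 and 11 reads in the female DRG libraries 1, 2 and 3, and Tnfsf9 had 72, 0 and 29 reads in the same libraries. This was not particular to the family: among genes of 52 to 500 total reads, 73.3% of the 15 TNF genes and 87.3% of all 3024 genes showed it. Such genes had wide errors in the tests that follow.

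The sexes were compared within each ganglion, the study's central contrast, with edgeR's quasi-likelihood test. Counts below use thresholds after the study's own: fold change above 2, unadjusted p under 0.05 and mean CPM above 1 in the higher sex. In TG 4 of 20 tested TNF genes passed, all higher in females: Tnfrsf1a, Tnfrsf1b, Tnfsf12 and Tnfrsf14. Over all 14009 genes 5.15% passed toward females and 2.26% toward males. In DRG 4 of 20 tested passed, again all higher in females: Ltbr, Tnfrsf11a, Tnfrsf1a and Tnfrsf1b, against 2.01% of all 13963 genes toward females and 2.96% toward males. At an adjusted p under 0.05 (Benjamini-Hochberg, edgeR) 0 TNF genes passed in TG, beside 0.0357% of all genes, and 0 in DRG, beside 0.0358%. The 5 genes that passed in each were Xist, Ddx3y, Eif2s3y, Kdm5d and Uty, and DESeq2 called 0 TNF genes as well while calling 753 genes in TG and 320 in DRG. At an unadjusted p under 0.05, 4 TNF genes were higher in females in each ganglion, beside 10.9% of all genes in TG and 3.85% in DRG, and 0 were higher in males, beside 9.79% and 8%. DESeq2 gave no adjusted p to some of them, among these Ltbr, Tnfrsf1a and Tnfrsf1b in DRG and Tnfrsf14 in TG. The study also listed Ltbr, Tnfrsf11a, Tnfrsf1a and Tnfrsf1b from these same samples, so their direction here is not independent evidence.

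Most tested TNF genes, the 4 that met the thresholds among them, had values toward females. In TG 14 of 20 tested TNF genes had a log2 fold change above 0, beside 52.8% of all genes, and their median was 0.55 against 0.05 over all genes. In DRG the count was 16 of 20 beside 51.4%, and the median 0.99 against 0.02. Without the 4 that met the thresholds, 10 of 16 were above 0 in TG (62.5%, median 0.23), and 12 of 16 in DRG (75%, median 0.75). Tested genes were those with enough reads, and 18 of the 39 could be tested in neither ganglion. Of the 19 tested in both, 12 were above 0 in both ganglia. The share over all genes tested in both was not computed, so this count is not read as a result about the family.

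**Figure D2:**
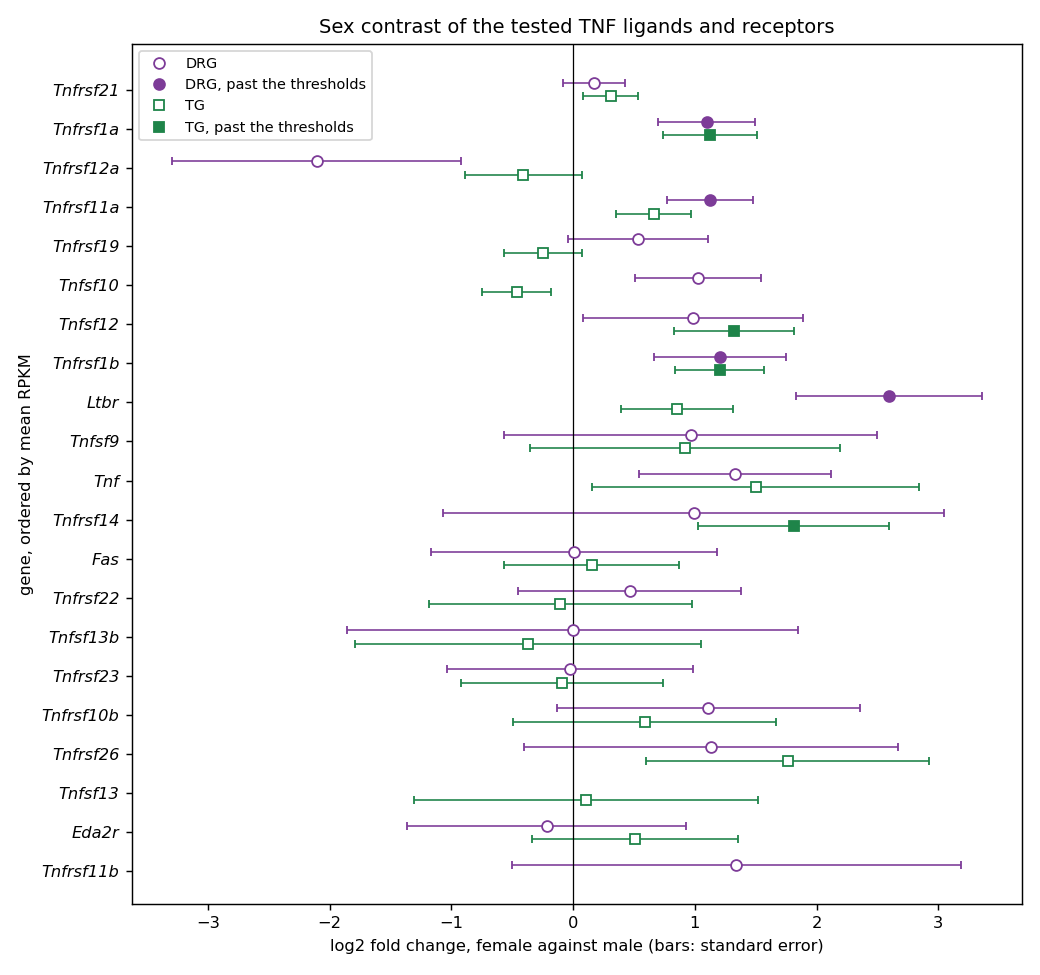
Log2 fold change, female against male, with standard error for each TNF gene tested in DRG (circles) or TG (squares), filled where the gene met the fold, p and CPM thresholds. The 4 filled values of each ganglion lie to the right of 0, between 1.10 and 2.59, and Tnfrsf12a and Tnfsf10 have values to the left.

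The positions and start regions of the 4 receptors that met the thresholds in DRG are shown because 2 of them are neighbours. In mm9 Ltbr lies at chr6:125256589-125263903 (- strand) and Tnfrsf1a at chr6:125299380-125312502 (+ strand), 35476 bases apart and pointing away from each other, with Scnn1a between them. Tnfrsf1b lies at chr4:144803366-144836773 (- strand), and Tnfrsf11a at chr1:107677300-107744558 (+ strand). The RefSeq promoter table (GRCm38.p6, 250 bases before to 50 after each start) held 32 of the 39 TNF genes. The letters of these 4 entries matched mm9 at 1 place each on their chromosome: chr6:125299491-125299790 (+ strand) for Tnfrsf1a, chr6:125263854-125264153 (- strand) for Ltbr, chr4:144836724-144837023 (- strand) for Tnfrsf1b and chr1:107677050-107677349 (+ strand) for Tnfrsf11a. They are printed 5′ to 3′ on the gene's strand, with GC boxes (GGGCGG on either strand, the letters known to bind Sp1) in capitals. The RefSeq start of Tnfrsf1a lies inside the mm9 gene, past its annotated start.
Tnfrsf1a: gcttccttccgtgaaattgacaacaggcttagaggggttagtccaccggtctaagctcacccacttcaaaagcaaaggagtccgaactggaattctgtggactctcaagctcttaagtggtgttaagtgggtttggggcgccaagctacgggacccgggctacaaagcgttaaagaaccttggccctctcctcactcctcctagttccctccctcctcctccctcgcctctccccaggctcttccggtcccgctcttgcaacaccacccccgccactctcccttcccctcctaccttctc
Ltbr: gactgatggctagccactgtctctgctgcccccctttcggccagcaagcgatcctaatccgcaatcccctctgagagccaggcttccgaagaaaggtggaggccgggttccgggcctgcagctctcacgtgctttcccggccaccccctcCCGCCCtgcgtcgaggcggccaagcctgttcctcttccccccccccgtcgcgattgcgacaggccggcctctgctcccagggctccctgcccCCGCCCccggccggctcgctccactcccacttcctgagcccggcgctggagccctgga
Tnfrsf1b: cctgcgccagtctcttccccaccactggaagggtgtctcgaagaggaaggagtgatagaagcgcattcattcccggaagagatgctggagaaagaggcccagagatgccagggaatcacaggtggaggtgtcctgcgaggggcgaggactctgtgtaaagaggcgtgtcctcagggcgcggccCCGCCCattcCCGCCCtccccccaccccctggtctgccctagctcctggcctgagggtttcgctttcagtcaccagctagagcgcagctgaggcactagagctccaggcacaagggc
Tnfrsf11a: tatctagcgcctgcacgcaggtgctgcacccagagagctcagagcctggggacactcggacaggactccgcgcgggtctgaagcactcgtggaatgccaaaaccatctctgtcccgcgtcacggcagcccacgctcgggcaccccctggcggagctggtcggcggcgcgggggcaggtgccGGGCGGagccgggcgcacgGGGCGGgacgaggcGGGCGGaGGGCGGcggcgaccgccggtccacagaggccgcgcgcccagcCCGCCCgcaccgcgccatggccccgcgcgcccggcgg

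The 4 windows differed in composition. GC content was 57.0% for Tnfrsf1a, 70.0% for Ltbr, 62.7% for Tnfrsf1b and 76.7% for Tnfrsf11a, beside a median of 52.7% over all promoters. GC boxes numbered 0 in Tnfrsf1a, 2 in Ltbr, 2 in Tnfrsf1b and 5 in Tnfrsf11a. A GC box was present in 35.9% of all 27025 promoters and in 16 of the 32 TNF genes. The NF-kB consensus was found in none of the 4 windows, in 8.18% of all promoters and in 2 of the 32 TNF genes (Ltb and Tnfrsf8), and TATAAA in none of the 4, in 14.2% of all promoters and in 7 of the 32. These are matches of letters on both strands, with no overlap between capitals, and say nothing of a factor's binding.

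Tnfrsf1a, which encodes TNFR1, the death-domain receptor through which soluble TNF acts, was higher in females in both ganglia. In TG it measured 46.8, 53.6 and 20.1 CPM in females and 15.4, 26.2 and 15.8 CPM in males. Female TG 1 and 2 were above every male library, while female TG 3 lay below male TG 2, so the groups overlapped. The change was 2.18-fold (log2 fold change 1.12, SE 0.39, unadjusted p = 0.0144, adjusted p = 0.173, edgeR). In DRG the females had 37.8, 37.4 and 16.7 CPM and the males 13.6, 15.5 and 14.1 CPM, without overlap, although female DRG 3 lay close to the highest male library. That difference was 2.14-fold (log2 fold change 1.10, SE 0.40, unadjusted p = 0.0167, adjusted p = 0.328, edgeR).

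Tnfrsf1b encodes TNFR2, which lacks a death domain, prefers membrane-bound TNF and is typical of immune and endothelial cells. The TG libraries had 13.9, 18.0 and 14.4 CPM in females and 5.10, 6.56 and 9.13 CPM in males. Every female library exceeded every male one, and the fitted difference was 2.30-fold (log2 fold change 1.20, SE 0.37, unadjusted p = 0.00725, adjusted p = 0.158, edgeR). In DRG the values were 28.7, 22.0 and 15.2 CPM in females and 16.4, 3.47 and 8.82 CPM in males. Here male DRG 1 was above female DRG 3, so the groups overlapped, and the difference was 2.30-fold (log2 fold change 1.20, SE 0.54, unadjusted p = 0.0443, adjusted p = 0.409, edgeR).

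Ltbr had the largest change of the tested TNF genes in DRG, 6.03-fold higher in females (log2 fold change 2.59, SE 0.77, unadjusted p = 0.00511, adjusted p = 0.307, edgeR). Females had 17.2, 10.8 and 4.15 CPM, and males 1.31, 2.06 and 1.97 CPM, from 14, 22 and 25 reads. The groups did not overlap, and the female libraries differed among themselves more than the male ones did. In TG females had 11.2, 9.16 and 5.52 CPM and males 4.92, 5.59 and 4.32 CPM, and the test there gave log2 fold change 0.85, SE 0.46, unadjusted p = 0.0919, adjusted p = 0.308 (edgeR). The sex effect in TG minus that in DRG was -1.78 on the log2 scale (unadjusted p = 0.0521, adjusted p = 0.9998, edgeR), so a difference between ganglia was not shown.

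Tnfrsf11a measured 64.7, 58.8 and 36.8 CPM in female DRG and 20.7, 20.4 and 32.4 CPM in male DRG. All female libraries were above all male ones, and the fitted difference was 2.18-fold (log2 fold change 1.12, SE 0.35, unadjusted p = 0.00742, adjusted p = 0.309, edgeR). In TG it measured 31.8, 37.6 and 19.5 CPM in females and 20.0, 18.5 and 19.7 CPM in males, with female TG 3 inside the male range (log2 fold change 0.66, SE 0.31, unadjusted p = 0.0543, adjusted p = 0.249, edgeR). Within the female groups, library 3 had the lowest Tnfrsf1a, Ltbr and Tnfrsf11a levels of both ganglia. Female DRG 3 also had the lowest macrophage marker sum of its group (209.8 CPM against 387 and 485) and the highest neuron marker sum (12293 CPM against 7571 and 7575). Its satellite glia, fibroblast and endothelial sums were the lowest too, but its Schwann cell sum was not. Female TG 3 had the lowest macrophage (349.7 CPM) and satellite glia (4049 CPM) sums of its group and the highest neuron sum (9637 CPM). Its fibroblast and mural sum (1226 CPM against 1863 and 1828) was the lowest too. So, by a small margin, was its Schwann cell sum (2307 CPM against 3026 and 2332), but its endothelial sum was not. The part of cell content in these levels was not tested.

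Tnfsf12 and Tnfrsf14 met the thresholds in TG only, on fewer reads. Tnfsf12, the TWEAK ligand, had 7.56, 6.34 and 13.2 CPM in female TG and 3.73, 4.56 and 2.85 CPM in male TG, without overlap (log2 fold change 1.32, SE 0.49, unadjusted p = 0.0211, adjusted p = 0.188, edgeR). In DRG it had 5.83, 9.25 and 2.88 CPM in females and 5.61, 2.06 and 1.5 CPM in males, which overlapped. In the mm9 annotation, 48.3% of the exon bases of Tnfsf12 are shared with the readthrough gene BC096441, which had 0 reads in every library, so reads in the shared part may not have been counted. Tnfrsf14, encoding HVEM, had 4.22, 6.75 and 2.76 CPM in female TG and 1.0, 1.66 and 1.38 CPM in male TG, without overlap (log2 fold change 1.81, SE 0.78, unadjusted p = 0.0412, adjusted p = 0.228, edgeR). In DRG 1 female library and 2 male libraries had 0 Tnfrsf14 reads, and the log2 fold change of 0.99 had an SE of 2.06. For these 2 genes the sex effects of the ganglia were not shown to differ (unadjusted p = 0.755 and 0.756, edgeR).

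**Figure D3:**
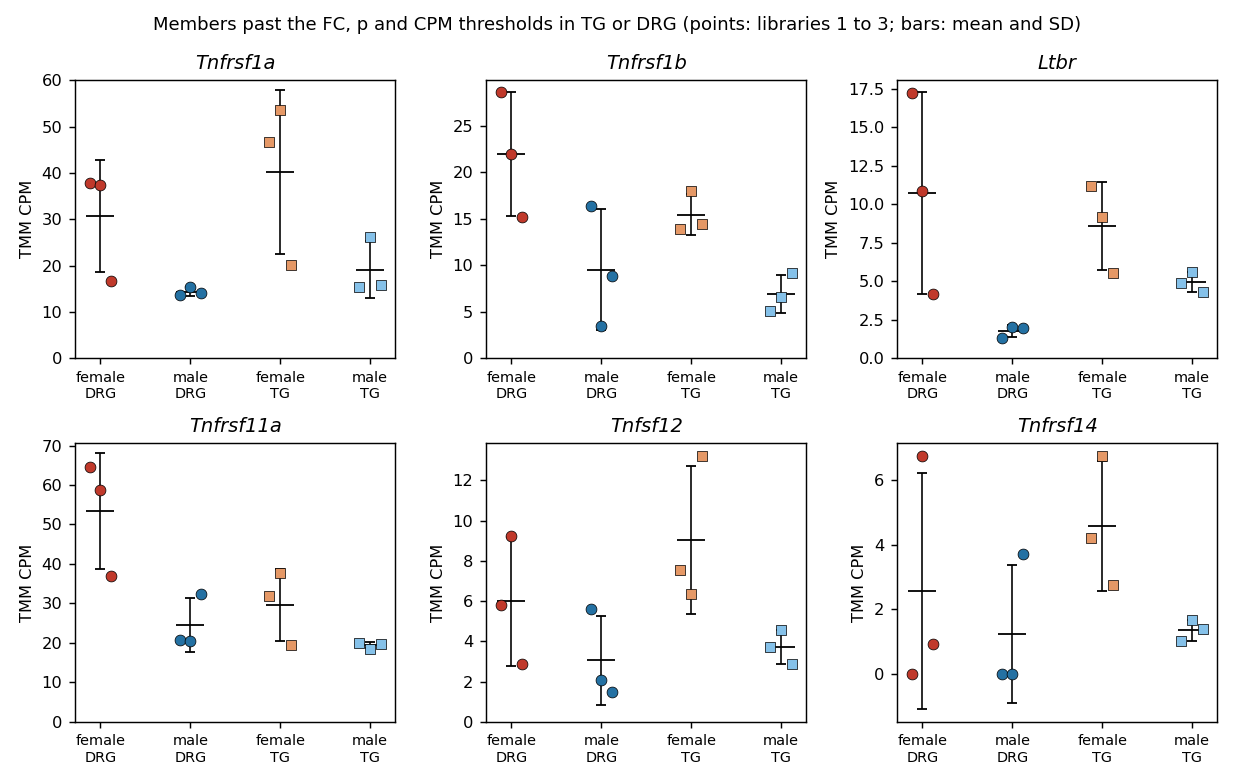
TMM-scaled CPM of the 6 TNF genes that met the thresholds in TG or DRG, 1 point per library in the order 1, 2, 3 within each group, with the group mean and SD as bars. Tnfrsf1a, Ltbr and Tnfrsf11a in DRG and Tnfrsf1b, Tnfsf12 and Tnfrsf14 in TG show no overlap of the sexes, and library 3 is the lowest of both female groups for Tnfrsf1a, Ltbr and Tnfrsf11a.

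These calls were sensitive to single libraries. Without female DRG 1 only Ltbr still met the thresholds in DRG, without female DRG 2 Ltbr and Tnfrsf11a, and without male DRG 2 Ltbr and Tnfrsf1a, and Ltbr met them in each of the 6 DRG fits that left out 1 library. In TG Tnfrsf1b did so in each of 6 fits, alone without male TG 3 and with only Tnfsf12 beside it without female TG 1, female TG 2 or male TG 1. Without female TG 3 the adjusted p of Tnfrsf1a, Tnfrsf11a, Tnfrsf1b and Tnfrsf14 fell under 0.05 in edgeR, but so did that of 3394 of 14379 genes (23.6%). With offsets for GC content and length, only Tnfrsf14 met the thresholds in TG and the log2 fold changes of Tnfrsf1a and Tnfrsf1b became 0.64 and 0.87, while in DRG Tnfrsf1b no longer passed (unadjusted p = 0.0554, edgeR) and Tnf and Tnfsf10 did.

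TNF itself, the ligand of both TNF receptors and a product chiefly of macrophages, was low. Tnf had 6.78, 8.09 and 5.67 CPM in female DRG and 3.18, 1.97 and 2.99 CPM in male DRG, which did not overlap. The test gave log2 fold change 1.33, SE 0.79, unadjusted p = 0.116, adjusted p = 0.530 (edgeR). In TG it ranged more widely, with 8.0, 0.482 and 3.78 CPM in females and 0, 0.829 and 3.63 CPM in males, and male TG 1 had 0 reads (log2 fold change 1.5, SE 1.34, unadjusted p = 0.288, adjusted p = 0.543, edgeR). Complete separation of the sexes was itself common: in DRG 4 of 20 TNF genes had every female library above every male one (Tnfrsf1a, Tnfrsf11a, Ltbr and Tnf), beside 7.85% of all genes, and 0 had the reverse, beside 9.63%. In TG 3 of 20 were separated toward females, beside 11.2%, and 1 toward males, beside 12.5%.

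That 1 was Tnfsf10, the TRAIL ligand. Tnfsf10 had 19.3, 13.3 and 20.2 CPM in female TG and 27.0, 24.8 and 23.3 CPM in male TG, a difference of -0.46 on the log2 scale (SE 0.28, unadjusted p = 0.128, edgeR). In DRG the values were 45.8, 34.9 and 16.5 CPM in females and 15.5, 6.66 and 25.2 CPM in males, with overlap and a log2 fold change of 1.02 (SE 0.51, unadjusted p = 0.0690, edgeR). The sex effects of the ganglia differed by -1.54 (SE 0.62) at an unadjusted p of 0.0225, the only 1 of 25 TNF genes under 0.05 in that test, beside 1.97% of all 14829 genes. After adjustment 0 of 25 TNF genes and 0 of all genes passed (edgeR).

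The other abundant members showed no sex call. Tnfrsf21 had log2 fold changes of 0.31 in TG (SE 0.23) and 0.17 in DRG (SE 0.25), on 1576 or more reads in every library. Tnfrsf19 encodes TROY, an orphan receptor that can take the place of p75 in the Nogo receptor complex, and its log2 fold changes were -0.25 in TG and 0.53 in DRG. Tnfrsf12a had negative log2 fold changes, -0.41 in TG and -2.11 in DRG, with 0, 1.16 and 4.15 CPM in female DRG against 9.25, 10.5 and 3.62 CPM in male DRG. Neither value passed (unadjusted p = 0.414 and 0.0992, edgeR), and the exons of Tnfrsf12a overlap antisense Hcfc1r1 over 8.10% of their length. Tnfsf9 had log2 fold changes of 0.92 in TG and 0.96 in DRG with SEs of 1.27 and 1.53.

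Markers of some other cell types leaned toward females in the same libraries. In a bulk fraction, fewer cells of a type and less RNA per cell cannot be told apart. Of 11 macrophage markers, 11 in TG and 9 in DRG had log2 fold changes above 0 toward females, and 3 and 2 met the thresholds. The macrophage sum, from lowest to highest library, was 349.7, 449 and 609.6 CPM in female TG against 186, 349.8 and 372 CPM in male TG, and 209.8, 387 and 485 against 205, 241 and 294 CPM in DRG. Of 8 endothelial markers, 5 met the thresholds in DRG and 1 in TG, all toward females, with sums of 349, 629 and 678 CPM in female DRG against 209, 220.0 and 365 CPM in male DRG, and 416, 435 and 682 against 335, 405 and 463 CPM in TG. Of 9 fibroblast and mural markers 4 passed in TG and 1 in DRG, all toward females, and 8 in TG and 9 in DRG were above 0. Their sums were 1226, 1828 and 1863 CPM in female TG against 879, 964 and 1601 CPM in male TG. In DRG they were 1685, 2365 and 2614 CPM in females against 1233, 1312 and 1835 CPM in males. Of 7 Schwann cell markers 3 passed in TG, all toward females, and 0 in DRG. Over all genes, 5.15% in TG and 2.01% in DRG passed toward females, and 2.26% and 2.96% toward males. The Schwann cell sums overlapped. They were 2307, 2332 and 3026 CPM in female TG against 2099, 2192 and 2825 CPM in male TG. In DRG they were 2021, 2510 and 3019 CPM in females against 2375, 2566 and 2591 CPM in males. The neuron marker sum was lower in 2 of 3 female than in all male DRG libraries, at 7571, 7575 and 12293 CPM in females against 10923, 12148 and 13129 CPM in males, and satellite glia sums were 2673, 5665 and 5979.6 against 3083, 5821 and 5942 CPM. In TG the neuron sum was 6673, 6703 and 9637 CPM in females against 7028, 9816 and 10031 CPM in males, and the satellite glia sum 4049, 6071 and 7099 against 4174, 4654 and 5499 CPM. Taken singly, 6 of 11 neuron markers in TG and 5 in DRG had log2 fold changes above 0 (medians 0.016 and -0.11). In each ganglion 1 neuron marker met the thresholds toward females. Of 7 satellite glia markers, 4 in TG and 6 in DRG were above 0, and 0 met the thresholds. Some lists had values toward males: the 2 tested neutrophil markers were below 0 in both ganglia (median log2 fold changes -1.32 in TG and -1.11 in DRG), with 0 past the thresholds, and the 1 erythroid marker tested in TG was lower in females past the thresholds (-1.04). The part of these cells, and of the reads outside genes, in the sex differences of the TNF genes was not tested.

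The 2 ganglia were compared over all 12 libraries with the sexes weighted equally. No TNF gene passed an adjusted p of 0.05 (0 of 25, edgeR, smallest adjusted p = 0.397), beside 0.964% of all 14829 genes, and DESeq2 also gave 0. At an unadjusted p under 0.05 there were 3 of 25, beside 8.83%. Tnfrsf11a leaned toward DRG (log2 -0.59, SE 0.23, unadjusted p = 0.0194, edgeR), with the high values in female DRG. Tnfrsf12a leaned toward TG (log2 1.41, SE 0.60, unadjusted p = 0.0307, edgeR), at 9.85, 11.1 and 4.57 CPM in female TG and 17.8, 11 and 6.38 CPM in male TG, and 0 reads in female DRG 1. Tnfrsf19 leaned toward TG (log2 0.77, SE 0.35, unadjusted p = 0.0399, edgeR), at 30.8, 36.6 and 26.0 CPM in female TG, 44.9, 47.7 and 22.4 CPM in male TG, 13.3, 34.6 and 25.3 CPM in female DRG and 4.49, 17.9 and 27.6 CPM in male DRG. For each of these 3 the ganglia overlapped, as for all 25, beside 0.998% of all genes separated toward TG and 0.364% toward DRG. The median over the 25 was 0.08 against -0.01 over all genes.

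**Figure D4:**
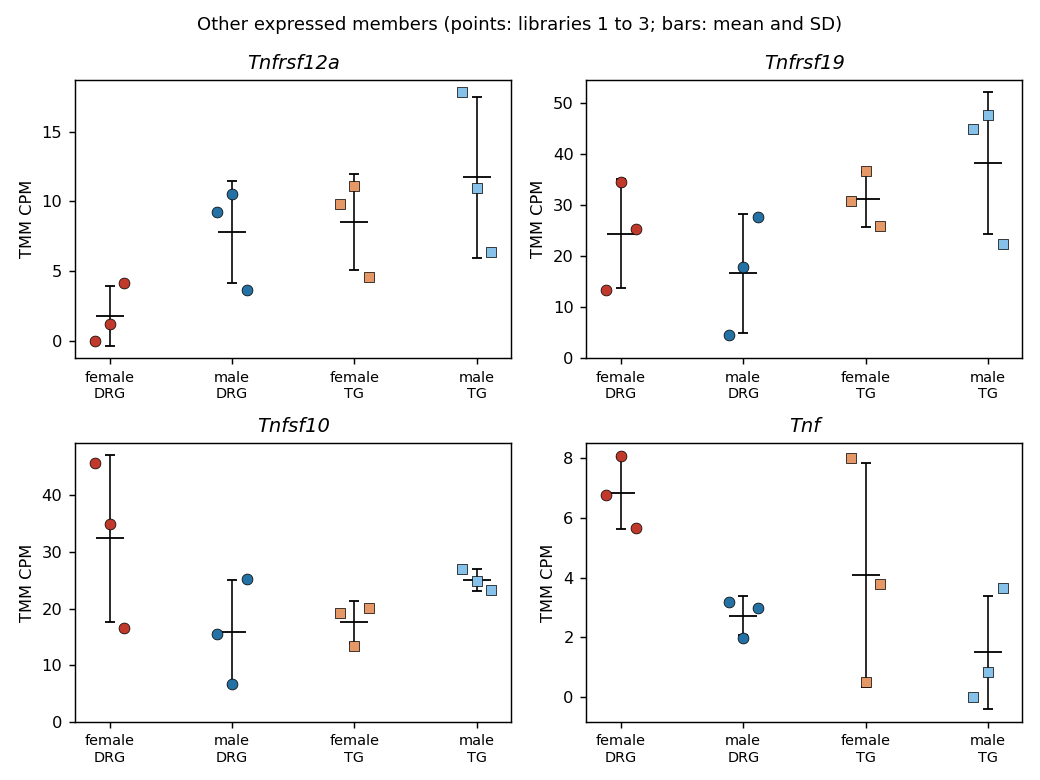
TMM-scaled CPM of Tnfrsf12a, Tnfrsf19, Tnfsf10 and Tnf in the 12 libraries, 1 point per library in the order 1, 2, 3 within each group, with the group mean and SD as bars. Tnfrsf12a has its lowest mean in female DRG (0, 1.16 and 4.15 CPM), Tnfsf10 is higher in male than in female TG with no overlap, and the male DRG values of Tnf (1.97 to 3.18 CPM) lie below the female ones.

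Downstream of the receptors, the NF-kB genes leaned toward females in TG. Of 15 NF-kB subunits, inhibitors and kinases tested there, 5 met the thresholds, all higher in females, beside 5.15% of all genes. A log2 fold change above 0 was found in 13 of 15, beside 52.8% of all genes (median 0.66 against 0.05 over all genes). Nfkb2, the precursor p100 of the alternative pathway that Ltbr and RANK feed, measured 12.5, 12.4 and 8.67 CPM in female TG and 1.91, 1.59 and 4.42 CPM in male TG. The sexes did not overlap (log2 fold change 2.13, SE 0.53, unadjusted p = 0.00196, adjusted p = 0.154, edgeR). Rela, the p65 subunit of the classical pathway, had 24.5, 36.9 and 10.1 CPM in females and 9.19, 9.67 and 9.04 CPM in males, also without overlap (log2 fold change 1.41, SE 0.44, unadjusted p = 0.00784, adjusted p = 0.158, edgeR). The other 3 were Relb, the partner of p52, at a log2 fold change of 1.53, and the nuclear regulators Nfkbid at 2.57 and Bcl3 at 2.59, which are named after their values were seen. In male TG Nfkbid measured 0.182, 1.24 and 1.28 CPM and Bcl3 0.364, 0.760 and 0.786 CPM. Bcl3 had 27, 45 and 68 reads in female TG and 4, 11 and 8 in male TG. It passed the low-count filter through the female libraries alone, so its direction adds no support to the counts of 5 and 13. Nfkb2 and Nfkbid were also among the genes the study picked from these libraries.

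In DRG 0 of 14 tested NF-kB genes met the thresholds, beside 2.01% of all genes toward females and 2.96% toward males. A log2 fold change above 0 was found in 10 of 14, beside 51.4% of all genes (median 0.43 against 0.02). An unadjusted p under 0.05 was reached by 2, both toward females, beside 3.85% of all genes toward females and 8% toward males. These 2 were Nfkbiz, an inducible nuclear regulator (log2 fold change 0.85, unadjusted p = 0.0277, edgeR), and Ikbkb, the main catalytic kinase of the pathway (log2 fold change 0.69, unadjusted p = 0.0443, edgeR), both without overlap of the sexes. Sex effects of Nfkb2 and Rela were not shown to differ between TG and DRG (unadjusted p = 0.272 and 0.254, edgeR). At an adjusted p under 0.05, edgeR called 0 genes of the pathway lists. With the offsets for GC content and length 3 of the NF-kB genes met the thresholds in TG (Bcl3, Nfkb2 and Nfkbid), in the model of all 12 libraries 1 (Rela), and without female TG 2 only Nfkb2, settings added after seeing the data.

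**Figure D5:**
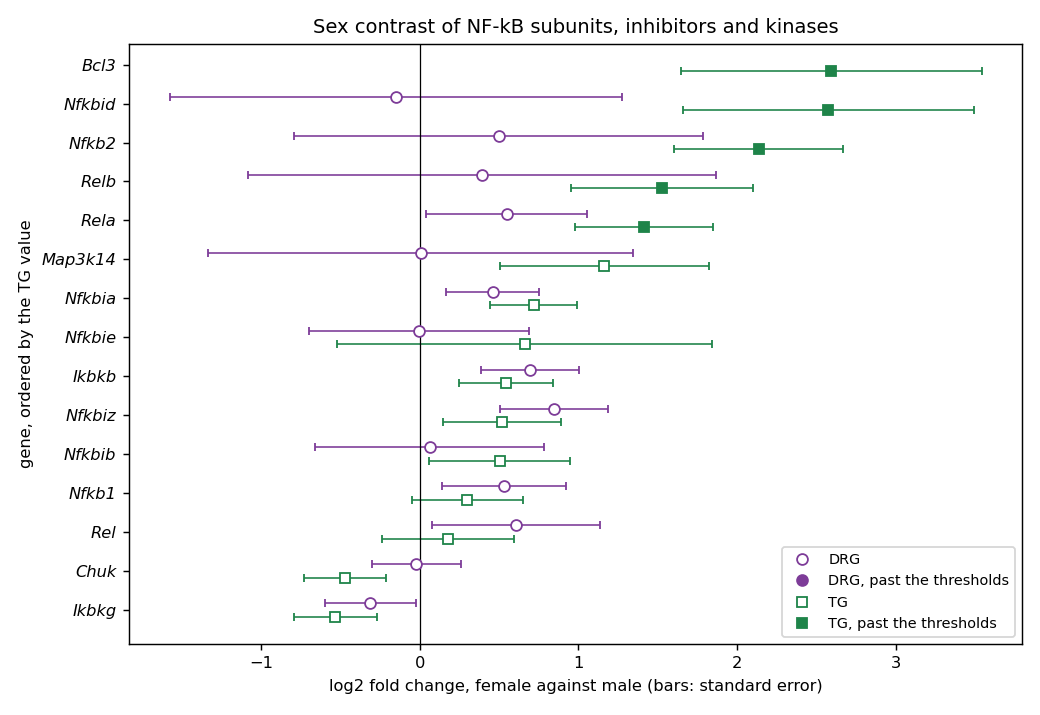
Log2 fold change, female against male, with standard error for the 15 NF-kB genes in DRG (circles, 14 tested) and TG (squares), filled where the gene met the thresholds. The 5 filled squares of TG (Rela, Relb, Nfkb2, Nfkbid and Bcl3) lie between 1.41 and 2.59, and 0 circles are filled.

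The remaining lists held fewer calls. Of 4 genes of ectodomain shedding, which frees TNF and its receptors from the membrane, 2 met the thresholds in TG, beside 5.15% of all genes toward females: Rhbdf1 (log2 fold change 1.26, unadjusted p = 0.00468, edgeR) and Rhbdf2 (1.18, unadjusted p = 0.0173, edgeR), the iRhoms that carry the sheddase ADAM17 to the surface. Adam17 itself had log2 fold changes of -0.19 in TG and 0.21 in DRG. Of 9 TNF-induced feedback and target genes, 2 passed in TG, beside the same 5.15%: Tnip1, which restrains NF-kB signalling (log2 fold change 1.12), and the adhesion molecule Icam1 (1.82), the latter also picked by the study. In DRG 0 of these 4 shedding and 9 target genes passed, beside 2.01% of all genes toward females and 2.96% toward males, and the lowest p-values there belonged to Rhbdf2 (log2 fold change 1.74), Rhbdf1 (1.09), the mitochondrial antioxidant enzyme Sod2 (-0.50) and Icam1 (1.06).

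Adaptors and the death arm gave no calls. Of the receptor adaptors 0 of 9 tested in TG and 0 of 10 in DRG met the thresholds. Over all genes 5.15% passed toward females and 2.26% toward males in TG, and 2.01% and 2.96% in DRG, so few calls could occur in lists this short. Tradd, which docks on the death domain of TNFR1, had log2 fold changes of -0.46 in TG and -1.33 in DRG. Traf4 had 1.26 in TG, and Traf3, a brake on the alternative NF-kB pathway, had 0.49 in DRG. Of the death arm 0 of 9 passed in each ganglion, beside the same shares. Birc2 and Xiap, which hold back TNF-induced death, had -0.58 and -0.49 in TG. Birc2 was the only 1 of the 9 under 0.05 there (unadjusted p = 0.0387, edgeR), beside 9.79% of all genes toward males. In DRG Birc2 had a log2 fold change of -0.43.

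Among family members whose symbols fall outside the chosen pattern, Ngfr stood out by level. Its mean over the 12 libraries was 54.2 ± 19.2 RPKM, beside 49.0 ± 7.52 RPKM for Tnfrsf21. Ngfr encodes p75, the neurotrophin receptor of sensory neurons and glia. It had 281, 237 and 185 CPM in female TG against 76.6, 90.4 and 156 CPM in male TG. The sexes did not overlap (log2 fold change 1.17, SE 0.30, unadjusted p = 0.00255, adjusted p = 0.154, edgeR), and Ngfr was also on the study's list. In DRG it had 251, 249.8 and 243 CPM in females and 165, 138 and 169 CPM in males, again without overlap, at a log2 fold change of 0.66 that was below the fold threshold (unadjusted p = 0.0220, edgeR). Of the 4 tested of these 7 genes it was the only 1 to pass in TG, beside 5.15% of all genes toward females. In DRG 0 passed, beside 2.01% of all genes toward females and 2.96% toward males. Next by p were Relt in TG (log2 fold change 0.82) and Eda, the ligand of Edar and Eda2r, in DRG (-0.91).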

How the data were processed

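Total RNA of 12 Percoll-enriched ganglion fractions was sequenced as single reads after rRNA depletion with a strand-marking kit. Per the labels and the study's methods, the authors aligned reads to mm9 with TopHat2 and deposited whole-number counts per gene from HTSeq; versions, annotation and strand setting are not given in the sources used here. The deposited counts were not normalized, and reads aligned to more than 1 place were not counted, which lowers near-identical paralogs. The 5 summary lines of each file were kept out of library sizes. Gene positions, exon lengths and GC content came from GENCODE vM1 (mm9), which matched 95.9% of 22609 genes, 52 through an older symbol, and 39 of 39 TNF genes.

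Groups follow the sample titles. Counts were fitted with edgeR 4.0.16 in R 4.3.3 (filterByExpr, TMM factors, glmQLFit, glmQLFTest, Benjamini-Hochberg adjustment over all genes tested), within TG, within DRG, and over all 12 libraries for TG against DRG and for the difference of sex effects. RPKM is TMM-scaled CPM per kilobase of exon union. edgeR stands in for the study's DESeq, and CPM above 1 for its RPKM above 1; the latter left the counts of TNF genes at 4 and 4. Named genes were the 10 with the highest mean RPKM, those past the thresholds, and Tnf, Tnfrsf1a, Tnfrsf1b, Ltbr and Tnfrsf11a; of each pathway list, the 2 with the lowest p in either ganglion, of which 1 value is not reported here. Other TNF genes are named in the ligand and receptor pairs, chosen after their values were seen. The members and lists were chosen with earlier results of these data known. Alternatives were no or RLE size factors, no low-count filter, DESeq2 1.42.0, a replicate block, GC and length offsets, a model of all libraries, other thresholds and leaving out each library. The fits were also run on simulated counts with 200 changed genes, drawn independently for each library. That run does not vouch for the comparisons of the real libraries, and its outcome is not reported here. The age in the labels is used; the study's methods give a younger one.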

Additional observations from a re-analysis of the deposited data

How the results depend on the processing

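In TG the count of TNF genes past the thresholds was 4, and it stayed at 4 without TMM factors, with RLE size factors, without the low-count filter, with DESeq2, with RPKM above 1 and with a fold change above 1.5. It was 2 with the replicate block, 1 with GC and length offsets, 0 with both together, 2 in the model of all 12 libraries, 0 at an adjusted p under 0.05, and 1 to 4 when 1 library was left out. The lowest was without male TG 3, and it was 2 without female TG 1, female TG 2 or male TG 1. In DRG the count of 4 became 0 at an adjusted p under 0.05 and 1 to 6 when 1 library was left out, and was 4 to 6 under the other settings. Ltbr met the thresholds in each of the 6 DRG fits that left out a library, and Tnfrsf1b in each of the 6 in TG. The NF-kB count of 5 in TG was 3 with GC and length offsets, 2 with those and the replicate block, 1 in the model of all 12 libraries, and 1 to 5 when 1 library was left out. The counts of 0 for TG against DRG and for the difference of sex effects stayed at 0 under every setting tried. Expressed genes numbered 15 to 19 when 1 library was left out, 19 without TMM factors, and 23 with RPKM above 0.5 or CPM above 1.

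The sign changed for values that were never past the thresholds. Tnfsf9 in DRG became -0.060 with the replicate block and ranged from -0.62 to 1.75 when 1 library was left out, Tnfrsf14 in DRG from -1.42 to 7.77, and Tnfrsf12a in TG from -0.70 to 0.026. Same-numbered libraries correlated at -0.0984 to 0.216 in their deviations from group means, and no set of pairs was above 0.1 throughout. The numbers were therefore not taken as pairs, but whether they mark shared animals cannot be told from these values. Over all genes the replicate block moved the calls from 1038 to 833 in TG, from 694 to 665 in DRG and from 143 to 562 in TG against DRG, where DESeq2 gave 333. In DRG each female library correlated best with the male library of its number. In both sexes TG libraries 2 and 3 correlated best with the DRG library of their number (0.117 to 0.216), and TG library 1 did not. The cause was not tested. At this depth 16 of the 39 TNF genes, 9 of 15 ligands and 7 of 24 receptors, had reads in 6 libraries or fewer. The part of depth in this was not tested.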
